A study of Mus musculus with 6 samples.

Results

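Islet endocrine genes were examined in pancreas RNA of male mice that lacked OCaR1, set against wild-type males, all 3 weeks old. The genes are a list of 35 that encode secretory granule proteins, parts of the machinery that couples nutrient and hormone stimuli to secretion, transcription factors of islet cells and a few further proteins enriched in these cells. Of the 35, 28 had a row in the authors' deposited gene table of 12016 rows, and all of those 28 had been tested. The other 7 (Kcnj11, Gipr, Nkx6-1, Neurod1, Insm1, Rfx6 and Gad1) were not analysed here. The rule used gene names and no measured value, although the list was proposed with earlier results of these data known.

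The wild-type group was 3 C57Bl6/N mice and the knockout group 3 mice labelled OCaR1-/-, and the strain field of the labels gives C56Bl6/N for both. No animal was treated, and the labels do not say how the null allele was made. OCaR1 is the product of Tmem63a, a link taken from background knowledge, not from the labels. Poly(A) RNA of the whole pancreas was sequenced as single reads of 50 bases. The targeted gene checked the labels: Tmem63a stood at 4.91 FPKM in knockout pancreas against 18.3 FPKM in wild-type pancreas, a 3.73-fold lower value that the authors' deposited table called.

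FPKM counts sequenced fragments relative to transcript length and library size. The authors gave 1 FPKM value per genotype that combines 3 mice, so no value of a single mouse, no spread and no overlap between mice can be shown. The words called, rose and fell are kept for genes whose q-value in the authors' Cuffdiff test lay under 0.05, and fold changes are knockout over wild type throughout. Across all 11478 tested genes, 7.54% were called, 4.2% higher and 3.35% lower, and the median log2 fold change was -0.03. Acinar cells make up most of the organ, and 13 acinar marker genes alone summed to 218672 FPKM in knockout pancreas. The 28 islet genes made up 0.0415% of the summed FPKM in the knockout and 0.0379% in wild type. In RNA of a whole organ, more cells of a type and more RNA per cell cannot be told apart.

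Endocrine cells of the islets store peptide hormones in dense-core granules. Granins condense the cargo, prohormone convertases and carboxypeptidase E cut hormone precursors to their final form, and zinc transport into beta cell granules serves insulin packing. Glucose enters the beta cell, is metabolised and closes a potassium channel, after which calcium enters and granules fuse, and incretin receptors amplify this step. A set of homeodomain, basic helix-loop-helix, MAF and RFX factors keeps these genes on in islet cells, while in most other cells the repressor REST, which binds the RE1 element, is known to hold many neuroendocrine genes off.

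Promoter sequences are shown first for the granin and convertase genes, since several of them share an element at a similar distance from the start. RefSeq promoters of build GRCm38.p6, each 250 bases before to 50 bases after a start, were matched to 23 of the 28 genes (27 promoters). The cyclic AMP response element, searched as TGACGTCA, was found in 4 genes, Chgb, Scg2, Pcsk1 and Pax6, and in 1.79% of all 32851 promoters of this length. The element was picked for display after its matches were seen, from a search of 20 motifs; of the 15 that are not shown, 7 had no match in the 23 genes. Its matches began 72, 68, 78 and 76 bases before the start. The search with 1 mismatch was added after the Chga promoter had been looked at. With 1 mismatch allowed, 8 genes and 12.5% of all promoters held it. Chga carries such a near match at C7A, where positions are counted from 1 at the first base of the element. The lines below run 5′ to 3′ from 120 bases before the start to the base before it, with the element, or its near match in Chga, in capitals.
Scg2, chr1:79440027-79440146, minus strand: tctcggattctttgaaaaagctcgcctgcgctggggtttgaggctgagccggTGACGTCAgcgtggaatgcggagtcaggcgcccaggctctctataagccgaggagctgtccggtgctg
Chgb, chr2:132781522-132781641, plus strand: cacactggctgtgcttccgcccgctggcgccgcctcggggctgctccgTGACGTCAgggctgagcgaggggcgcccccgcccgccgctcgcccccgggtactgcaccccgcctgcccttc
Pcsk1, chr13:75089737-75089856, plus strand: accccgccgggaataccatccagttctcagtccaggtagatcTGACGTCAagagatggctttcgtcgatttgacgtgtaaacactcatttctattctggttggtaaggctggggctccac
Chga, chr12:102554821-102554940, plus strand: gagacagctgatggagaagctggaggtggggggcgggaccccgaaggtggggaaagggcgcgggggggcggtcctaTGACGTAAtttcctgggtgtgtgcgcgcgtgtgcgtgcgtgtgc

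A further pair of promoters is shown because their genes stand out below, Ptprn2 as a granule gene that fell and G6pc2 as the islet gene with the highest fold change. In Ptprn2 both arms of the RE1 element, searched as TTCAGCACC and GGACAGCGC on either strand with 0 to 10 bases between them, abut each other at bases 5 to 22 after the start, on the minus strand. Both arms in this order were found in 4 of the 32851 promoters (0.0122%), and in 1 of the 23 genes. The spacing and the last letter of the second arm were set after the Ptprn2 sequence had been seen, so the rarity of the match is a description of a chosen site. The first arm alone was in 0.371% of all promoters and in 2 of the 23 genes, Ptprn2 and Scg2, a granin gene that rose. In Scg2 it runs from 7 bases before the start to base 2 after it, on the minus strand. The bases beside it in the Scg2 line above come near the second arm, and no mismatch was allowed in the search for both arms. The whole element of 21 bases, with 2 free bases between the arms and up to 3 mismatches, matched 24 promoters and 0 of the 23 genes. The core of the MAF recognition element, searched as TGCTGAC on both strands, was found in 4.67% of all promoters and in G6pc2 alone among the 23 genes, at 2 places of the more downstream of its RefSeq starts; 1 of 23 genes is 4.35%, near the background. The E-box CAGNTG, searched on both strands and bound by factors such as NEUROD1, was in 15 of the 23 genes and in 51.4% of all promoters. A match describes the letters of a window and does not show that a factor binds there. In the lines below, capitals mark the RE1 arms and the MAF cores as they read on the gene's strand.
Ptprn2, chr12:116485720-116485745, plus strand: ggtgGCGCTGTCCGGTGCTGAAgctc
G6pc2, chr2:69219799-69219948, plus strand: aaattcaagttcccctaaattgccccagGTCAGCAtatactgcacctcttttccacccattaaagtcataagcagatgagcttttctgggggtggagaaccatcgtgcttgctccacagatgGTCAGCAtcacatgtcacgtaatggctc

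**Figure D1:**
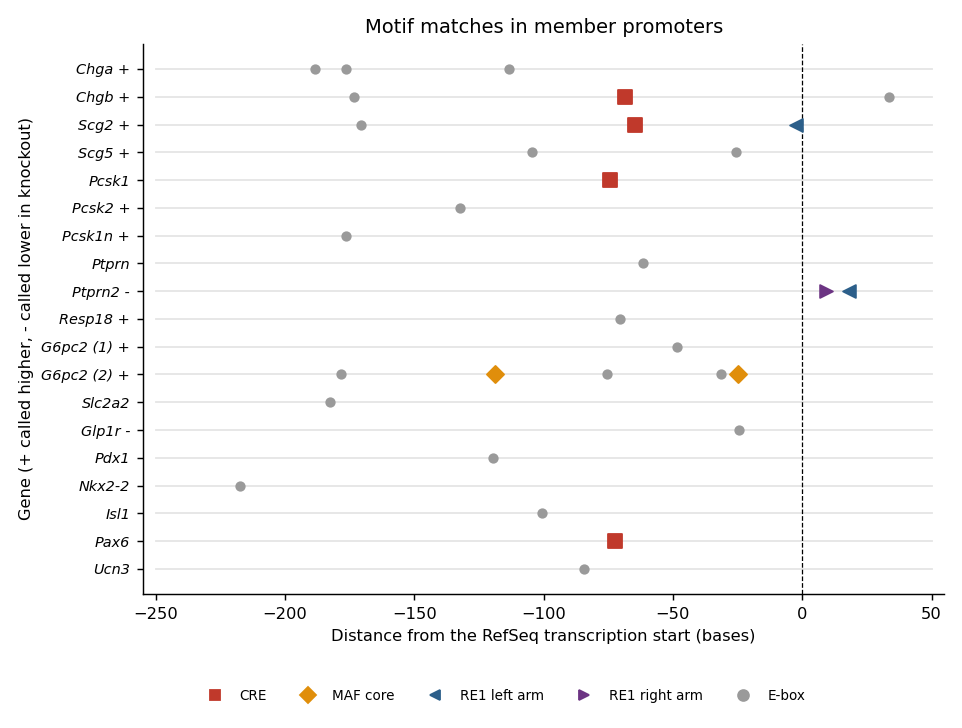
Motif matches along the promoters of the genes that held at least 1 match, against distance in bases from the RefSeq start, with a plus or minus after genes called higher or lower in the knockout. The 4 matches of the cyclic AMP response element lie between 61 and 78 bases before the start, in Chgb and Scg2, which rose, and in Pcsk1 and Pax6, which were not called.

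Granule genes rose, while the transcription factor genes were not called. Among the 28 tested genes, the authors' deposited table called 12 higher (42.9%, against 4.2% of all tested genes) and 2 lower (7.14%, against 3.35%). The median log2 fold change was 0.43, against -0.03 over all tested genes, and 22 of the 28 values lay above 0. By role, 10 of 14 granule genes rose and 1 fell, and 2 of 4 stimulus coupling genes rose and 1 fell. Of 5 transcription factor genes and 5 further genes, 0 were called by Cuffdiff, and the number with an unadjusted p under 0.05 was 0 among the first and 2 among the second. The medians were 0.63, 0.53, 0.24 and 0.23 in this order. Every row of the table has more than 1 FPKM in at least 1 genotype, and Mafa and Scgn passed that level in the knockout alone, so they had to be higher there. Without this pair, an alternative chosen after seeing the data, the medians of the transcription factor and further genes were 0.14 and 0.18 over 4 genes each, and 12 of 26 islet genes were called higher and 2 lower. The differences between the roles were not tested, since genes are not replicates.

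**Figure D2:**
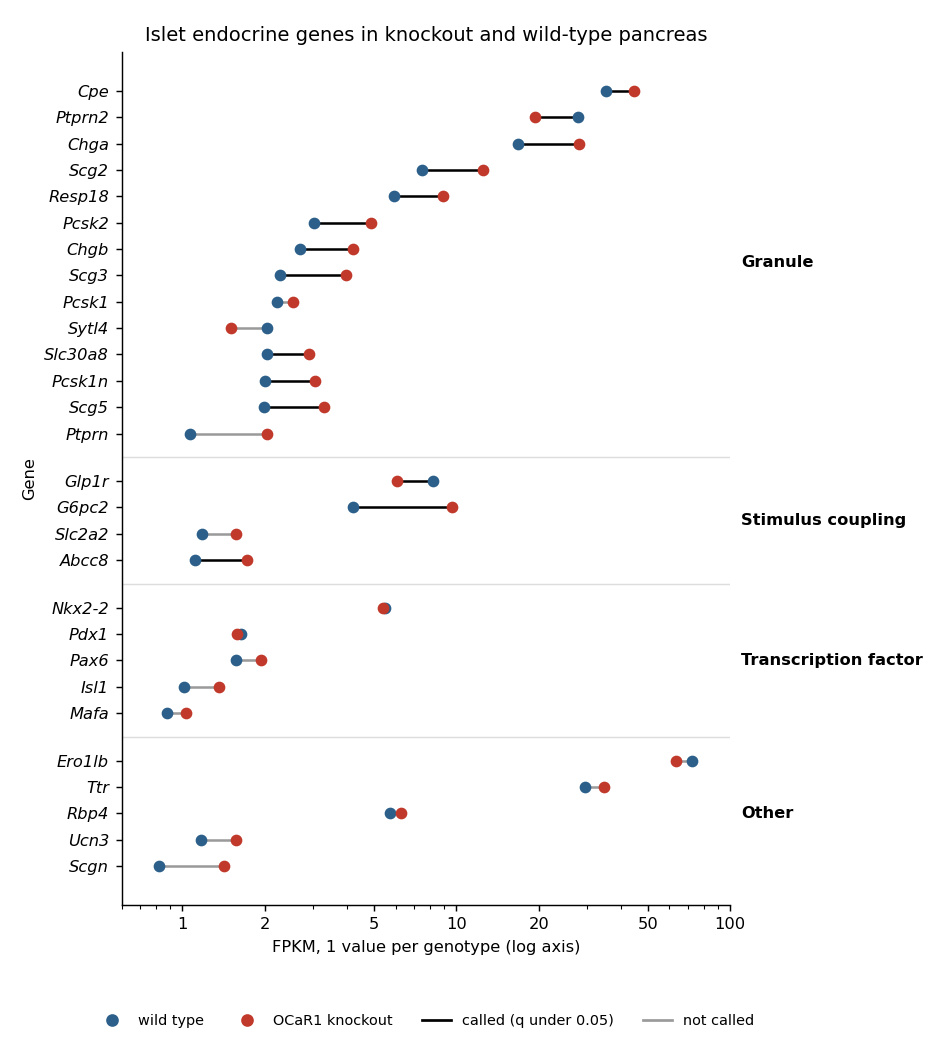
FPKM of each of the 28 tested islet genes in wild type and knockout on a log axis, 1 value per genotype, grouped by role and joined by a black line where the authors' test called the gene. The knockout point lies to the right for 22 genes, and the black lines that run the other way belong to Ptprn2 and Glp1r.

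Every granin gene of the list rose. Chga (ENSMUSG00000021194, chromosome 12, 102554969 to 102565027), which encodes chromogranin A, a granule matrix protein, stood at 28.1 FPKM in knockout pancreas against 16.9 FPKM in wild-type pancreas, 1.67-fold higher. Scg2 (ENSMUSG00000050711, chromosome 1, 79434669 to 79440120), the secretogranin II gene, had 12.5 FPKM and 7.52 FPKM in the same order. Chgb, the chromogranin B gene on chromosome 2, had 4.21 and 2.68 FPKM. These 3 genes differ widely in level, yet their log2 fold changes of 0.74, 0.74 and 0.65 lay close together. Scg3, whose product anchors chromogranin A at the granule membrane, had 3.95 FPKM in knockout pancreas against 2.27 FPKM in wild-type pancreas, 1.74-fold higher. Scg5, which encodes the chaperone of the convertase made from Pcsk2, had 3.30 and 1.98 FPKM. Each of the 5 had p = 5e-05 and q = 0.00152 in the authors' deposited table, the smallest values that table holds, which 394 genes share.

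Of the prohormone convertase genes, Pcsk2 rose and Pcsk1 was not called. Pcsk2 (ENSMUSG00000027419, chromosome 2, 143535476 to 143816285), the convertase best known for cutting proglucagon and for the last steps of proinsulin cutting, rose 1.61-fold, from 3.02 FPKM in wild type to 4.87 FPKM in the knockout. Pcsk1 (chromosome 13, 75089826 to 75132498), the convertase that begins proinsulin cutting, had 2.53 FPKM in knockout pancreas against 2.21 FPKM in wild-type pancreas and was not called (the authors' deposited table gives q = 0.537). The ratio of Pcsk2 to Pcsk1 was 1.92 in the knockout and 1.37 in wild type, a difference that was not tested. Pcsk1n, which encodes an inhibitor of the Pcsk1 enzyme, rose from 2.00 to 3.05 FPKM. Cpe (chromosome 8, 64592558 to 64693040), the carboxypeptidase that trims basic residues after the convertases, was the most abundant granule gene, and it rose 1.27-fold, from 35.2 to 44.5 FPKM (the authors' deposited table gives q = 0.0124). Cpe thus had the smallest fold change of the 10 granule genes that rose.

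Among genes of membrane and luminal granule proteins, Slc30a8 and Resp18 rose, and Ptprn was not called. Slc30a8 (chromosome 15, 52295553 to 52335798), the granule zinc transporter gene of beta cells, rose from 2.03 to 2.90 FPKM, 1.43-fold (the authors' deposited table gives q = 0.0200). Resp18, which encodes a luminal granule protein, rose from 5.93 to 8.92 FPKM (the authors' deposited table gives q = 0.0107). Its neighbour Ptprn lies 7.70 kb away on the same strand of chromosome 1 and encodes IA-2, a granule protein of the receptor phosphatase family. Ptprn had 2.04 FPKM in knockout pancreas against 1.07 FPKM in wild-type pancreas, a log2 fold change of 0.93 that was not called (the authors' deposited table gives q = 0.128). Its log2 fold change was exceeded by 2.38% of the tested genes.

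Ptprn2 (ENSMUSG00000056553, chromosome 12, 116485720 to 117337022), which encodes the IA-2 paralog phogrin, went the other way. It fell from 27.9 FPKM in wild type to 19.3 FPKM in the knockout, 1.45-fold lower (the authors' deposited table gives q = 0.00152). It was the only granule gene of the list that fell. Ptprn2 shares its interval in the table with the processed pseudogene Gm17807, which lies inside the gene with 0 bases of exon in common in GENCODE release M21 and was not called, at 4.21 FPKM in knockout and 4.38 FPKM in wild-type pancreas. Per kilobase of transcript, Ptprn2 was 26.1 times as abundant as Ptprn in wild type and 9.49 times as abundant in the knockout. Sytl4, the gene of granuphilin, which docks granules at the plasma membrane, had 1.503 FPKM in knockout pancreas against 2.04 FPKM in wild-type pancreas and was not called (the authors' deposited table gives q = 0.143).

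Stimulus coupling genes included the highest fold change of the 28. G6pc2 (ENSMUSG00000005232, chromosome 2, 69211073 to 69227841), the islet glucose-6-phosphatase gene, whose enzyme frees glucose from its phosphate, rose from 4.20 to 9.69 FPKM, 2.31-fold, and its log2 fold change of 1.21 was exceeded by 1.46% of the tested genes. Abcc8 (chromosome 7, 46104523 to 46180033), the sulfonylurea receptor subunit of the potassium channel that glucose metabolism closes, rose from 1.11 to 1.73 FPKM, 1.56-fold. Both had q = 0.00152 in the authors' deposited table. Slc2a2, the glucose transporter gene of mouse beta cells, which is also made in liver, had 1.57 FPKM in knockout pancreas against 1.17 FPKM in wild-type pancreas without a call (the authors' deposited table gives q = 0.237 and an unadjusted p of 0.0375). Glp1r (ENSMUSG00000024027, chromosome 17, 30901867 to 30936510), the receptor for glucagon-like peptide 1, fell from 8.25 to 6.08 FPKM, 1.36-fold (the authors' deposited table gives q = 0.0116). Glp1r had been the most abundant of the 4 in wild type and came second in the knockout, below G6pc2.

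None of the 5 tested transcription factor genes was called by Cuffdiff, and their levels were low. Nkx2-2, a homeodomain factor of beta cell identity, had 5.41 FPKM in knockout pancreas against 5.48 FPKM in wild-type pancreas (the authors' deposited table gives q = 0.991). Pdx1, which drives insulin transcription and pancreas formation, had 1.59 and 1.64 FPKM. These were the pair with values below 0 on the log2 scale, at -0.02 and -0.05, and that of Nkx2-2 turned to 0.015 when the median of all tested genes was subtracted. Each shares its interval with an antisense gene, 6430503K07Rik for Nkx2-2 and 2210019I11Rik for Pdx1. The antisense partners had no exon base in common with them in GENCODE release M21 and were not called, but the use of strand in counting is not given, so reads of such partners cannot be told apart. Isl1, a LIM homeodomain factor of all islet cell types, had 1.35 FPKM in knockout pancreas against 1.02 FPKM in wild-type pancreas. Pax6, needed for hormone gene expression, had 1.94 and 1.57 FPKM, and Mafa, a factor of mature beta cells, had 1.03 and 0.877 FPKM. The last 3 had log2 fold changes of 0.41, 0.30 and 0.24, all above the median of all tested genes, and q-values of 0.594, 0.651 and 0.753 in the authors' deposited table. An uncalled value at such levels does not show that the genes were alike in the genotypes.

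The 5 further genes were also not called. Scgn, the gene of the calcium-binding protein secretagogin, had 1.42 FPKM in knockout pancreas against 0.821 FPKM in wild-type pancreas (log2 fold change 0.79; the authors' deposited table gives q = 0.179), and Ucn3, a peptide of mature beta cells, had 1.57 and 1.17 FPKM (log2 fold change 0.43, q = 0.221). These were the 2 with an unadjusted p under 0.05. The remaining 3 are made in other cells of a pancreas sample as well. Ttr, the thyroxine carrier gene, had 34.7 FPKM in knockout pancreas against 29.6 FPKM in wild-type pancreas. The gene Dsg2 shares its interval in the table but does not overlap it. In GENCODE release M21, Dsg2 lies 60758 bases from Ttr with 0 bases of exon in common, and it was not called. Rbp4, the retinol carrier gene, had 6.29 and 5.73 FPKM. Ero1lb, an oxidase of protein folding in the endoplasmic reticulum, had 63.6 FPKM in knockout pancreas against 72.3 FPKM in wild-type pancreas and was the most abundant of the 28 genes in both genotypes (the authors' deposited table gives q = 0.332).

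**Figure D3:**
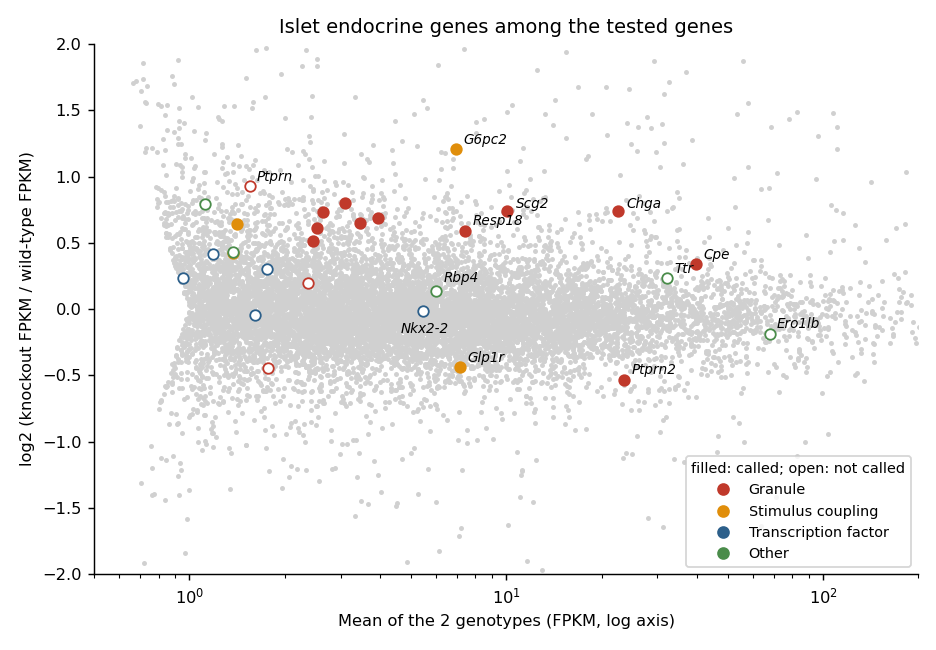
Log2 fold change against the mean of both genotypes in FPKM (log axis) for the tested genes in grey and the 28 islet genes in colour by role, filled where called; 210 of 11441 genes lie outside the drawn range. Most islet genes lie below 10 FPKM, and Ptprn2 and Glp1r are the filled points below 0.

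The counts were also taken by level and by the cells known to make each gene. With a mean of the genotypes under 5 FPKM, 7 of 17 islet genes rose and 0 fell, where 7.13% of the 5919 tested genes at such levels were called, 4.83% higher and 2.3% lower. At 5 FPKM or more, 5 of 11 rose and 2 fell. Over all tested genes 4.2% were called higher and 3.35% lower, and the shares at this level alone were not computed. Those shares differ from the ones over all genes. Tested genes under 5 FPKM held 286 of the 482 higher calls but 136 of the 384 lower calls, so most lower calls lay at 5 FPKM or more. Of the 7 tested genes listed as made by other cells of the organ as well (Cpe, Pdx1, Slc2a2, Ero1lb, Ttr, Rbp4 and Isl1), 1 rose, and their median was 0.23. Without these 7, 11 of 21 genes rose, 2 fell, and the median was 0.61. The 2 that fell were Ptprn2 and Glp1r, and whether other cells of the organ make them as well was not examined.

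The peptide hormones of the same cells gave a reference for size. All 7 tested hormone genes rose, with a median log2 fold change of 0.61, among them Ins2 (3231 FPKM in knockout pancreas against 1998 FPKM in wild-type pancreas) and Gcg (360 and 226 FPKM), while Sst rose least (36.8 and 28.8 FPKM). Of the 10 granule genes that rose, 8 lay within 0.15 of the hormone median on the log2 scale. These 10 were taken because they rose, so closeness to a raised median is partly built in. The granule genes that did not rise, Pcsk1, Ptprn, Ptprn2 and Sytl4, all lay further away. Ins2 was 115 times as abundant as Chga in the knockout and 118 times in wild type. G6pc2 lay 0.59 above the hormone median, whereas Pcsk1, Glp1r and Ptprn2 lay at -0.42, -1.05 and -1.15 relative to it. None of these distances was tested.

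Further genes of the same processes, from longer lists, had medians near 0. Their calls stand beside 4.2% of all tested genes called higher and 3.35% called lower. Of 16 tested genes of the regulated secretory pathway, the authors' deposited table called 2 higher, Hap1, which encodes a vesicle trafficking protein (1.76 FPKM in knockout pancreas against 0.904 FPKM in wild-type pancreas), and the synaptotagmin gene Syt13 (1.80 and 1.25 FPKM). It called 2 lower, Bex2 (19.9 and 32.3 FPKM) and the RAB effector gene Rph3al (6.997 and 9.37 FPKM). Their median was 0.03. Hap1 had over 1 FPKM in the knockout alone, so its row is there only through the genotype where it is high, and without it 1 of 15 was called higher. The 9 further stimulus coupling genes had a median of -0.04. The 9 further transcription factor genes had a median of 0.01, and among them the delta cell factor gene Hhex rose from 1.72 to 2.69 FPKM. Of the 30, 28 and 22 genes on these lists, 14, 19 and 13 had no row and were not analysed here.

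**Figure D4:**
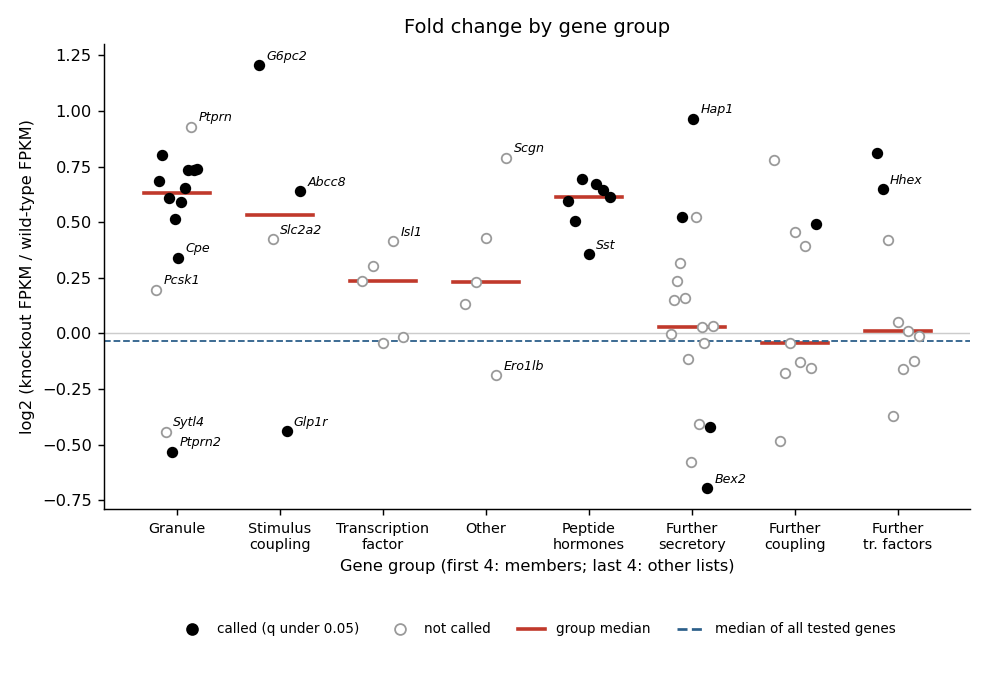
Log2 fold change of each gene by group, filled where called, with the group median as a red line and the median of all tested genes, -0.03, as a dashed line. The granule genes and peptide hormones have medians of 0.63 and 0.61, and the 3 longer lists have medians between -0.04 and 0.03.

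Markers of other cell types moved in the same comparison. The share of all tested genes called higher was 4.2%, and the share called lower was 3.35%. Each list below is short, so its share is a rough one. Macrophage genes rose in 11 of 13 cases with a summed level of 140 FPKM in knockout pancreas against 79.6 FPKM in wild-type pancreas, and fat cell genes in 7 of 9 with sums of 198 and 90.4 FPKM. Endothelial genes rose in 5 of 10 cases (sums 80.9 and 62.4 FPKM), stromal genes in 6 of 10 (468 and 356 FPKM) and duct genes in 1 of 6 (237 and 219 FPKM). Of 13 acinar genes, 3 fell (sums 218672 and 237900 FPKM), namely Ptf1a, Pnlip and Cela1. The higher values of islet genes thus stood beside higher values of several non-acinar cell types, and the part of these in the result was not tested. Nerve cells and gut endocrine cells also make granins, and their part in the granin values was not tested. Of 16 nerve markers only Uchl1 had a row (1.12 and 1.04 FPKM). Of 12 gut markers only Vil1 had one (1.36 and 2.07 FPKM), in an interval shared with Rqcd1, Usp37 and Zfp142. Cuffdiff called 0 of this pair, and 0 had an unadjusted p under 0.05. A marker without a row does not show that its cells were absent, since rows need over 1 FPKM in a genotype. Of 8 liver markers, Alb and Apoa2 had rows (sums 1.05 and 2.52 FPKM); both had over 1 FPKM in wild type alone, so these rows could only be lower in the knockout and say nothing of the liver list. The rows of Emr1 and Mpeg1 among the macrophage genes and of Retn among the fat cell genes passed 1 FPKM in the knockout alone; without them 9 of 11 and 6 of 8 rose.

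**Figure D5:**
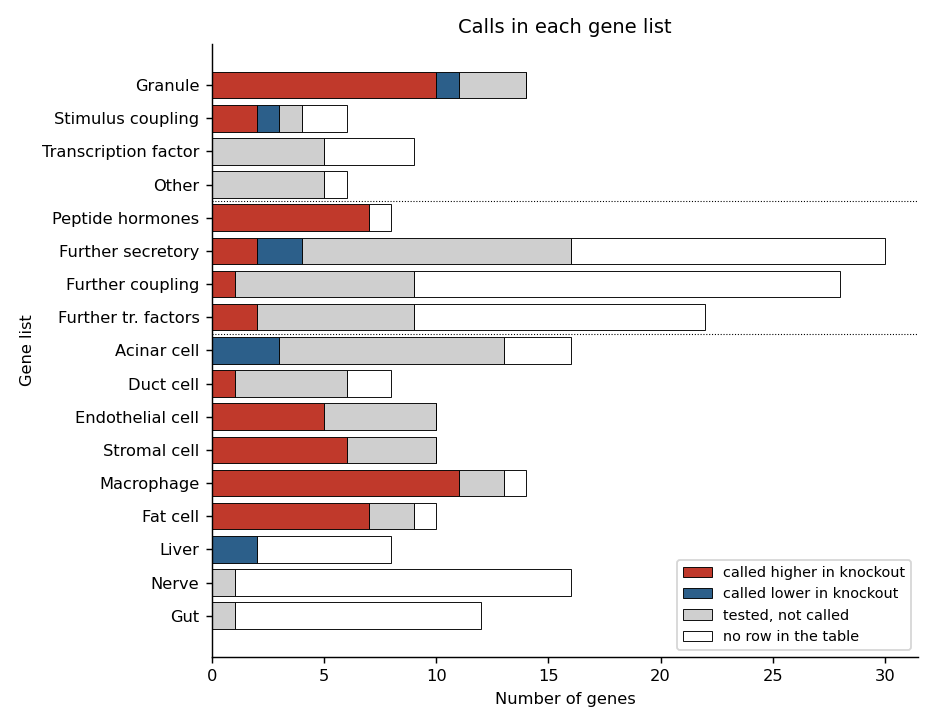
Number of genes per list that were called higher, called lower, tested without a call or without a row in the table. Granule genes and hormones are mostly called higher, as are macrophage and fat cell genes. Of the nerve and gut markers, 15 of 16 and 11 of 12 have no row, which does not show that these cells were absent.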

How the data were processed

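RNA of 6 pancreas samples, 3 per genotype, was sequenced. RNA integrity numbers of 8.20 to 9.10 and an input of 2.5 µg are given in the labels' protocols. The reads were processed on build GRCm38 with STAR 2.5.1b, Cufflinks 2.2.1 and Cuffdiff, per the submitters' processing notes. Annotation release, strand setting and scaling were not given in the sources used here. For each genotype the authors' deposited table gives 1 FPKM value, and for each gene the p-value and q-value of the authors' Cuffdiff test. Depth per sample is therefore unknown, and no interval or floor is given.

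Fold changes were computed from the deposited FPKM values with no pseudocount (Python 3.11.15, pandas 2.3.3); the deposited fold change column was not used. A value under 0.01 FPKM counted as 0. No test was added. The 538 untested rows were left out. Interval starts were shifted to count from 1. Counting and adjustment were tested on simulated data. Of 20 motifs searched in RefSeq promoters, 5 are shown, chosen after their matches were seen; the RE1 arm search and the CRE search with 1 mismatch were also set after the sequences were seen.

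The members and lists were chosen with earlier results of these data known. Named genes are the members found, Tmem63a, the main islet hormones, and up to 4 genes per other list with the smallest p; some genes this rule selects are not reported here. Alternatives were the q threshold, the adjustment, filters on level, shared intervals, pseudocounts of 0.5 and 1, and scaling.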

Additional observations from a re-analysis of the deposited data

How the results depend on the processing

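No paired analysis was possible because the table holds 1 value per genotype and no column of a single mouse; for the same reason no mouse could be left out. The count of higher islet genes was 12 at q under 0.05 and fell to 5 of 11 genes with at least 5 FPKM in either genotype, with 4 of 5 granule and 1 of 2 stimulus coupling genes; fewer genes are tested there. With a mean of at least 2 FPKM, chosen after seeing the data, 1 of 2 stimulus coupling genes was higher. The count of lower genes went from 2 to 1 at q under 0.01, with 0 among stimulus coupling genes (Glp1r is lost), and to 1 without shared intervals, with 0 among granule genes (Ptprn2 is left out). The median of the tested islet genes, 0.43, was 0.32 and 0.29 with pseudocounts of 0.5 and 1 FPKM, 0.23 with at least 5 FPKM, 0.61 without genes made by other cells as well and 0.55 with a mean of at least 2 FPKM. That of granule genes, 0.63, was 0.51 with a pseudocount of 1. For stimulus coupling genes, 0.53 became 0.39 and 0.31 with the pseudocounts, 0.38 with either filter on level and 0.64 without genes of other cells. For transcription factor genes, 0.24 became 0.12 with a pseudocount of 1 and -0.018 with either filter on level, which leaves 1 gene, Nkx2-2. For the further genes, 0.23 became 0.61 without those of other cells, which leaves 2. Nkx2-2 itself turned from -0.018 to 0.015 when the median of all tested genes was subtracted. In the other 89 recomputed counts and medians the result stayed on the same side and within these limits. A median counted as moved past 0.1 on the log2 scale, and a count past 1.5 times. Scaling to the sum without acinar markers shifted every log2 value by -0.09 and changed no sign among the named genes. Low FPKM values limit the transcription factor genes most, and the depth behind them is unknown.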

Other observations

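Several further genes of the longer lists were not called. Among the exocytosis genes of the longer list, Stx1a, the plasma membrane syntaxin of granule fusion, stood at 2.78 FPKM in knockout against 4.15 FPKM in wild-type pancreas, and its partner Vamp2 had 18.0 and 15.3 FPKM; the authors' deposited table gives q = 0.0787 and q = 0.447, so neither was called. Rab27a, the GTPase that granuphilin binds, was not called either, at 9.45 and 9.74 FPKM, beside Sytl4 at a log2 fold change of -0.44. Kcnk16, a potassium channel gene of islet cells, was listed at 1.25 FPKM in knockout and 0.729 FPKM in wild-type pancreas and missed the threshold (the authors' deposited table gives q = 0.0850); its row passed 1 FPKM in the knockout alone. Stx1a, Vamp2 and Rab27a were picked after their values were seen. No difference between the genes of a pair was tested.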
